A study of Mus musculus with 6 samples.

Results

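The genes described here are 51 genes of the cell cycle: 25 that act in G1 or at entry into S phase (G1/S), 23 that act in G2 or mitosis (G2/M), and 3 INK4 inhibitors of the G1 kinases. They were taken by symbol from a fixed list and matched to Ensembl identifiers, and all 51 were found among the 49671 identifiers of the count files and passed the filter on low counts, which left 15355 genes. Counts came from total RNA of mouse iRECs, induced renal epithelial cells, which are fibroblasts turned into tubule-like cells with kidney transcription factors. In the Cre libraries, the cells of clones 4, 7 and 21 had been transduced with Cre and were labelled Pkd1 -/-. In the Flp libraries, the cells of those clones had been transduced with Flp and were labelled Pkd1 wild type (Pkd1 fl/fl). All 6 cultures carried the floxed allele of strain B6.129S4-Pkd1tm2Ggg/J, grew in a fibroblast medium with serum and were harvested after reaching confluence. Each line is a clone, with 1 library per clone and group, and no label gives the animals behind the clones. Pkd1 encodes polycystin-1, the protein most often affected in autosomal dominant polycystic kidney disease.

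A cell commits to division in G1, when D-type cyclins with Cdk4 or Cdk6, and then E-type cyclins with Cdk2, phosphorylate the retinoblastoma protein and free E2F factors. E2F factors switch on the genes for origin licensing and nucleotide supply, and later the complexes of B-Myb and FoxM1 switch on the genes for mitosis. INK4 proteins block Cdk4 and Cdk6. Renal tubule cells divide rarely in the adult kidney, and their division is a feature of cyst growth. RNA levels of these genes are used as a measure of how many cells of a culture are cycling. In such bulk libraries, fewer cycling cells and less RNA per cycling cell cannot be told apart.

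The genes of both phases share sequence features that the list did not use. Promoters from RefSeq on GRCm38.p6, 300 bases each from 250 before to 50 after the annotated start, were present for 20 G1/S, 18 G2/M and 3 INK4 genes, and not for Gmnn, Foxm1, Mcm4, Ccnd2, Ccnd1, Cdc25c, Aurkb, Ccna2, Ccne2 and Tpx2. They were searched on both strands for the core of the cell cycle genes homology region, TTTGAA, which the DREAM and FoxM1 complexes are known to use, and for E2F forms, spelled TTCCCGC, TTTGGCGC and TTTCGCGC, where matches could overlap. TTTGAA lay in the promoters of 13 of 18 G2/M genes and 2 of 20 G1/S genes, against 17.9% of all 32851 promoters. An E2F form lay in those of 9 of 20 G1/S genes and 1 of 18 G2/M genes, against 5.33% of all promoters. The CCAAT box, which was allowed to overlap the other motifs, was in 17 of 18 G2/M and 11 of 20 G1/S genes, against 37.4% of all promoters. A match is a description of the letters only. The 160 bases before the start are shown for 4 G2/M genes with TTTGAA or its reverse complement TTCAAA in capitals, and for 2 G1/S genes with E2F forms in capitals, because TTTGAA was found in more G2/M than G1/S genes and E2F forms in more G1/S than G2/M genes. Cdk1, in whose sequence the E2F form is left in lower case, is the 1 G2/M gene that holds both. The regions and strands are Cdk1 chr10:69352913-69353072 (minus), Cdc20 chr4:118437344-118437503 (minus), Ube2c chr2:164769769-164769928 (plus), Kif11 chr19:37376222-37376381 (plus), Mcm6 chr1:128359706-128359865 (minus) and Mcm5 chr8:75109349-75109508 (plus).
Cdk1: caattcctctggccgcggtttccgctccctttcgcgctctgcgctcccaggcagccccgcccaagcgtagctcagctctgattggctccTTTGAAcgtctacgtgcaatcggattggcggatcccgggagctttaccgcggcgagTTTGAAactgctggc
Cdc20: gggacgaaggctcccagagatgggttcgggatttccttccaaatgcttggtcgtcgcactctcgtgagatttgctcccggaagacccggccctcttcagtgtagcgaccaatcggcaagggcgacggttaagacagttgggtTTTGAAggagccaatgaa
Ube2c: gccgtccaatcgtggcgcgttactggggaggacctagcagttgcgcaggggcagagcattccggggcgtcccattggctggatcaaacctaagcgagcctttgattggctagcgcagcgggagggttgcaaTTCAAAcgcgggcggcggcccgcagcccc
Kif11: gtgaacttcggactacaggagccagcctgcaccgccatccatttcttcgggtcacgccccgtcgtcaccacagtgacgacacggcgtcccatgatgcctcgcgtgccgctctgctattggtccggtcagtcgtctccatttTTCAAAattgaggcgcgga
Mcm6: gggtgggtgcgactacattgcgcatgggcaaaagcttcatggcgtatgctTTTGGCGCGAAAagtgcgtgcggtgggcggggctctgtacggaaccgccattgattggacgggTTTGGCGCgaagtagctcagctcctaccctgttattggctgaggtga
Mcm5: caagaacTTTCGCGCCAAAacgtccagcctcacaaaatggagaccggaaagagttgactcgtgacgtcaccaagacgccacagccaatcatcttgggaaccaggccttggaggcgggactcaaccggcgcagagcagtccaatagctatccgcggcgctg

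**Figure D1:**
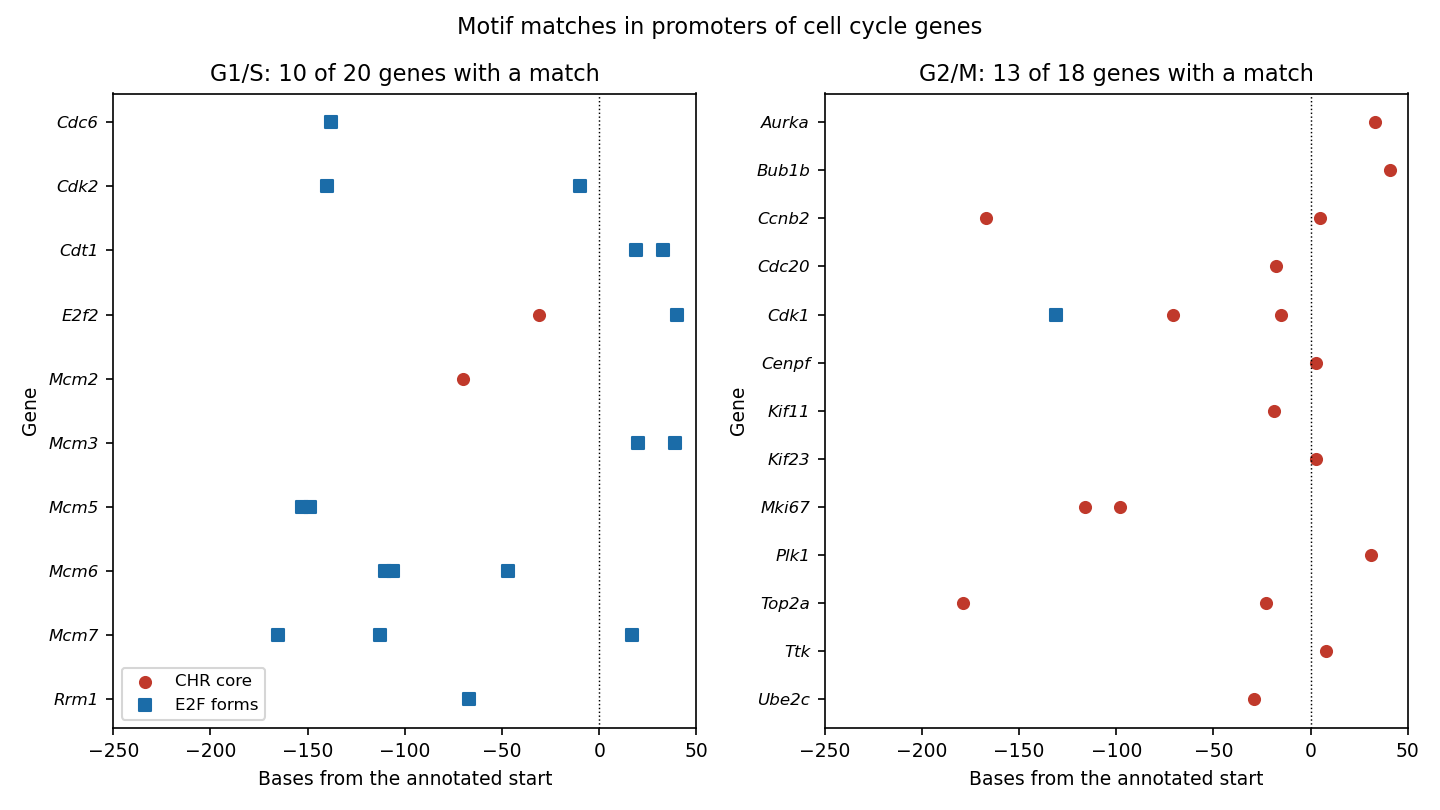
Matches of TTTGAA (red circles) and of the E2F forms (blue squares) on either strand, by distance in bases from the annotated start, for G1/S genes (left) and G2/M genes (right) with at least 1 match. TTTGAA marks 13 of 18 G2/M genes, and E2F forms mark 9 of 20 G1/S genes.

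Libraries held 25196120 to 46918341 gene counts. A gene with no reads could have stood at up to 0.0639 CPM in the library with the most counts and 0.119 CPM in that with the fewest, where these limits cover counting error only. Of 16 kidney epithelial markers 14 passed the filter, from Lrp2 at 2858 CPM and Cdh16 at 817 CPM over all libraries to Umod at 3.30 CPM and Slc34a1 at 2.22 CPM, while Slc12a1 was at 0.0478 CPM and Aqp2 at 0 in every library. They differed in clone 7 as well. A higher Cre over Flp ratio there at an unadjusted p under 0.05 was found for 4 of the 14, against 3.04% of all genes. A lower one was found for 3, against 3.11% of all genes (smallest edgeR adjusted p = 0.347). In clone 7, Krt8 had 649 CPM in Cre, against 259 CPM in Flp, and Aqp1 had 0.274 CPM in Cre, against 12.4 CPM in Flp, and the part of these markers in the results was not tested. Fibroblast markers summed to 993 to 1108 CPM in Cre and 688 to 1213 CPM in Flp. Nearly all of it was Fn1 and Vim, at 756 and 225 CPM over all libraries. Of the 10, 5 were under 1 CPM on average, and 1 of these was at 0 throughout. Endothelial markers summed to 2.57 to 5.28 CPM in Cre and 2.66 to 4.58 CPM in Flp, with 3 of 7 at 0 throughout. Haematopoietic markers summed to 193 to 299 CPM in Cre and 118 to 204 CPM in Flp, nearly all of it Csf1r, with 295 CPM in Cre and 112 CPM in Flp of clone 7, whereas Ptprc and Itgam were at or near 0 and Tyrobp and Adgre1 at 0 throughout. Pkd1 had 145, 105 and 118 CPM in Cre clones 4, 7 and 21, against 199, 229 and 166 CPM in Flp clones 4, 7 and 21. Pkd1, the targeted gene, was lower in every Cre library than in every Flp library, and its fitted log2 fold change was -0.69 (SE 0.16; edgeR adjusted p = 0.607). Whether the counted exons include the deleted part was not tested.

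Most cell cycle genes were lower in Cre than in Flp in clones 4 and 21, and higher in Cre than in Flp in clone 7. On the scale of log2 CPM ratios (CPM, counts scaled to library size; prior count 2), the median of the 25 G1/S genes was -0.37, 0.55 and -0.19 in clones 4, 7 and 21. The median of the 23 G2/M genes was -0.41, 0.61 and -0.43 in those clones. Over all genes tested the medians were 0.00, 0.01 and 0.00 in clones 4, 7 and 21. The sign was above 0 in clone 7 and below 0 in clones 4 and 21 for 43 of the 51 genes, against 13.4% of all genes tested. The reverse signs were found for 2, Cdkn2a and Cdkn2b, against 12.0% of all genes. In clone 7, 38 of 51 genes were at least 1.25-fold higher in Cre than in Flp, against 20.2% of all genes. In clone 4, 33 of 51 were at least 1.25-fold lower in Cre, against 18.1% of all genes. In clone 21, 23 of 51 were at least 1.25-fold lower in Cre, against 19.6% of all genes, and 17 of these 23 were G2/M genes. In the other direction, 2 of 51 were at least 1.25-fold lower in Cre of clone 7, against 23.0% of all genes, and 4 higher in Cre of clone 21, against 20.7%. Each clone has 1 library per group, so a ratio within a clone has no replicate check.

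**Figure D2:**
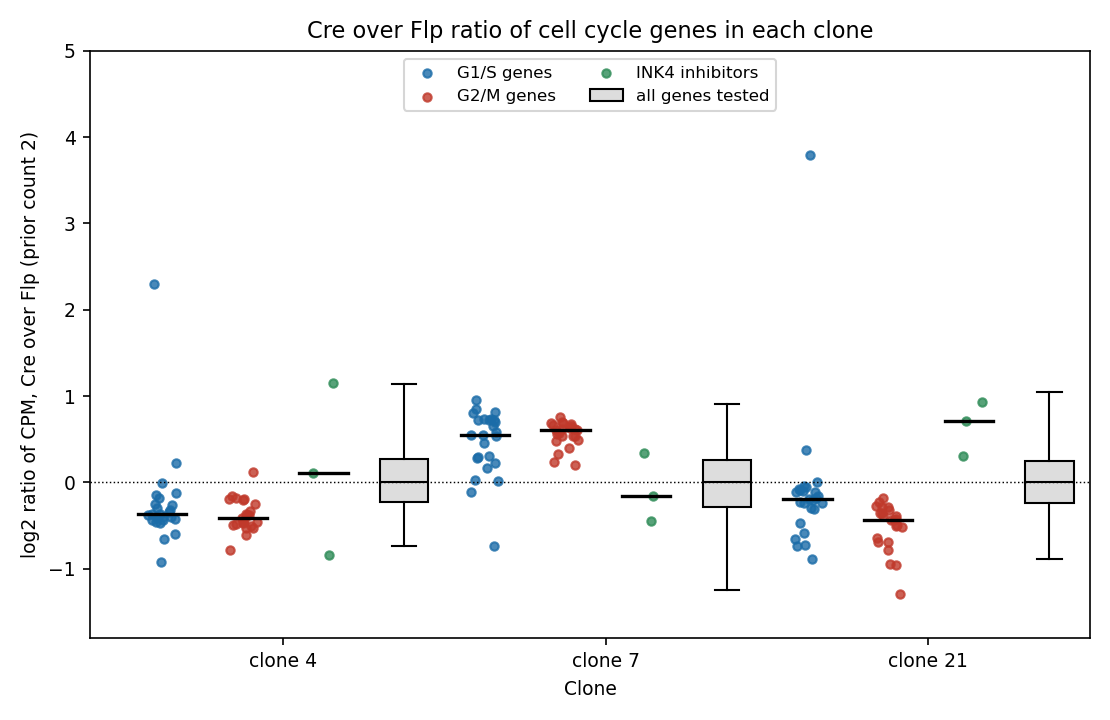
Cre over Flp log2 ratio of CPM for each cell cycle gene (points) in clones 4, 7 and 21, with the median of each group (bars) and all 15355 genes tested (grey box: quartiles; whiskers: central 90%). G2/M genes had medians of -0.41, 0.61 and -0.43, and the 2 points far above 0 are Ccnd2 in clones 4 and 21.

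Over the 3 clones together no cell cycle gene passed the test. In the edgeR fit of Cre against Flp with clone as a block, 0 of 51 genes passed an adjusted p of 0.05, as did 0.00% of all genes, and 1 of 51 (Ccnd2) had an unadjusted p under 0.05, against 6.82% of all genes. All Cre libraries lay above all Flp libraries in 0 of 51 genes, against 4.19% of all genes, and all below in 0 of 51, against 3.95%. A ratio above 0 in all 3 clones was found for 1 gene, Ccnd2, against 14.6% of all genes, and one below 0 in all 3 for 0, against 13.1%. The median fitted log2 fold change was 0.03 for G1/S and -0.11 for G2/M genes. In the limma-voom fit and the DESeq2 fit with the same block, also 0 of 51 passed, where DESeq2 called 1.47% of the genes it gave an adjusted p. The authors' deposited table lists all 51 genes and gives none of them an adjusted p under 0.05, where 1.37% of its genes with an adjusted p had one. The largest change of a cell cycle gene in the authors' deposited table is the -0.31 of Bub1. This ranking holds within that table only. Ccnd2, at 0.21 there, had the largest value of the 51 in the edgeR fit, at 2.05, so the fold changes may not be like measures.

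Without clone 7, more of the genes had small p-values. Most of them had the opposite sign in clone 7, and that clone was set apart with earlier results of these data known. Leaving it out was thus bound to favour small p-values, and these counts are no independent evidence. With clones 4 and 21 alone, 20 of 51 genes were lower in Cre at an unadjusted p under 0.05, 7 of them G1/S and 13 G2/M genes, against 3.26% of all genes. Higher at that p were 2 genes, Ccnd2 and Cdkn2b, against 2.76% of all genes. The 20 lower genes include all 8 that lie on distal chromosome 2: Bub1, Cdc25b, Pcna, Tpx2, E2f1, Mybl2, Ube2c and Aurka. By their median, the 334 other genes tested from that region were also lower in Cre of clone 21 (-0.54), but not of clone 4 (0.02). Cre was the library with the larger total in both clones. How far the region or the totals account for the 20 was not tested. Without clone 4, 0 of 51 were lower, against 5.01% of all genes, and 0 higher, against 6.02%. Without clone 21, 0 of 51 were lower, against 1.92% of all genes, and 0 higher, against 1.40%. In each of these fits 0 passed an adjusted p of 0.05. The median log2 fold change of the 51 genes was -0.34 without clone 7, 0.08 without clone 4 and 0.08 without clone 21.

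The difference of clone 7 from the other clones was fitted over all genes as an extra term, which leaves 1 residual degree of freedom. A higher Cre over Flp ratio in clone 7 at an unadjusted p under 0.05 was found for 34 of 51 genes, 15 G1/S and 19 G2/M, against 3.04% of all genes. A lower one was found for 3, namely Ccnd1, Ccnd2 and Cdkn2b, against 3.11% of all genes. Together these are 37 of 51 genes, against 6.15% of all genes. No cell cycle gene and 0.00% of all genes passed the adjusted threshold. DESeq2 with the same model called 1 of the 51, Ccnd2, with a lower ratio in clone 7 as in 0.501% of the genes it gave an adjusted p. Clone 7 was set apart with earlier results of these data known, so these p-values are no independent evidence.

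Licensing genes load the MCM helicase onto origins of replication before S phase. All 9 had a ratio above 0 in clone 7 and below 0 in clones 4 and 21, with medians of -0.41, 0.74 and -0.19 in clones 4, 7 and 21. Mcm3 had 93.7, 136 and 81.4 CPM in Cre clones 4, 7 and 21, against 126, 74.9 and 99.95 CPM in Flp clones 4, 7 and 21. Mcm3 (ENSMUSG00000041859, chromosome 1, 20802968 to 20820312, minus strand), a subunit of the helicase ring, was thus highest in Cre of clone 7 and lowest in Flp of that clone. Its log2 ratios were -0.42, 0.86 and -0.30 in clones 4, 7 and 21, and clone 7 differed from the other clones by 1.22 (SE 0.24; edgeR quasi-likelihood test, Benjamini-Hochberg adjusted p = 0.414). Mcm6 had 105, 153 and 102 CPM in Cre clones 4, 7 and 21, against 140.4, 87.9 and 116 CPM in Flp clones 4, 7 and 21. Mcm6, another subunit, differed in clone 7 by 1.103 (SE 0.25; edgeR quasi-likelihood test, Benjamini-Hochberg adjusted p = 0.503), with the highest and lowest libraries as for Mcm3. The other subunits Mcm2, Mcm4, Mcm5 and Mcm7 had ratios of 0.65 to 0.96 in clone 7, -0.60 to -0.37 in clone 4 and -0.18 to -0.08 in clone 21. Part of the Mcm7 exons is shared with Ap4m1 and Cops6 on the other strand, so its counts are less certain. Cdc6 and Cdt1, which load the ring, and Gmnn, the inhibitor of Cdt1, followed, with clone 7 ratios of 0.82, 0.58 and 0.74. In clone 21 only Cdt1 of these 9 was at least 1.25-fold lower in Cre, at a log2 ratio of -0.47.

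Genes of nucleotide supply and the replication fork had medians of -0.37, 0.72 and -0.21 in clones 4, 7 and 21. Pcna had 43.6, 60.4 and 46.96 CPM in Cre clones 4, 7 and 21, against 56.5, 36.6 and 74.1 CPM in Flp clones 4, 7 and 21. Pcna (ENSMUSG00000027342, chromosome 2, 132249162 to 132253314, minus strand), the sliding clamp of DNA polymerase, was lowest in Flp clone 7 and highest in Flp clone 21. Clone 7 differed by 1.24 (SE 0.29; edgeR quasi-likelihood test, Benjamini-Hochberg adjusted p = 0.520). Rrm1 and Rrm2, the subunits of ribonucleotide reductase, and Tyms, thymidylate synthase, had ratios of 0.55, 0.72 and 0.73 in clone 7. Tk1 had 36.2, 40.8 and 22.9 CPM in Cre clones 4, 7 and 21, against 47.7, 34.95 and 38.1 CPM in Flp clones 4, 7 and 21. Tk1, thymidine kinase, was the least different of the 5 in clone 7, with a ratio of 0.22, and stood at -0.73 in clone 21. Its fitted log2 fold change over all clones was -0.30 (SE 0.20; edgeR adjusted p = 0.874).

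The transcription factors of the G1/S programme also had these signs. E2f1 had ratios of -0.46, 0.30 and -0.58 in clones 4, 7 and 21, E2f2 of -0.93, 0.28 and -0.72, and Mybl2, which encodes B-Myb, of -0.44, 0.31 and -0.88. E2f2 had 5.61, 6.48 and 3.96 CPM in Cre clones 4, 7 and 21, against 10.7, 5.32 and 6.57 CPM in Flp clones 4, 7 and 21. E2f2, with 175 to 265 reads per library, had the lowest level per length of all 51 genes, at 1.32 RPKM. Fitted over all clones, its log2 fold change was -0.46 (SE 0.32; edgeR adjusted p = 0.882), and that of Mybl2 -0.34 (SE 0.27; edgeR adjusted p = 0.901).

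**Figure D3:**
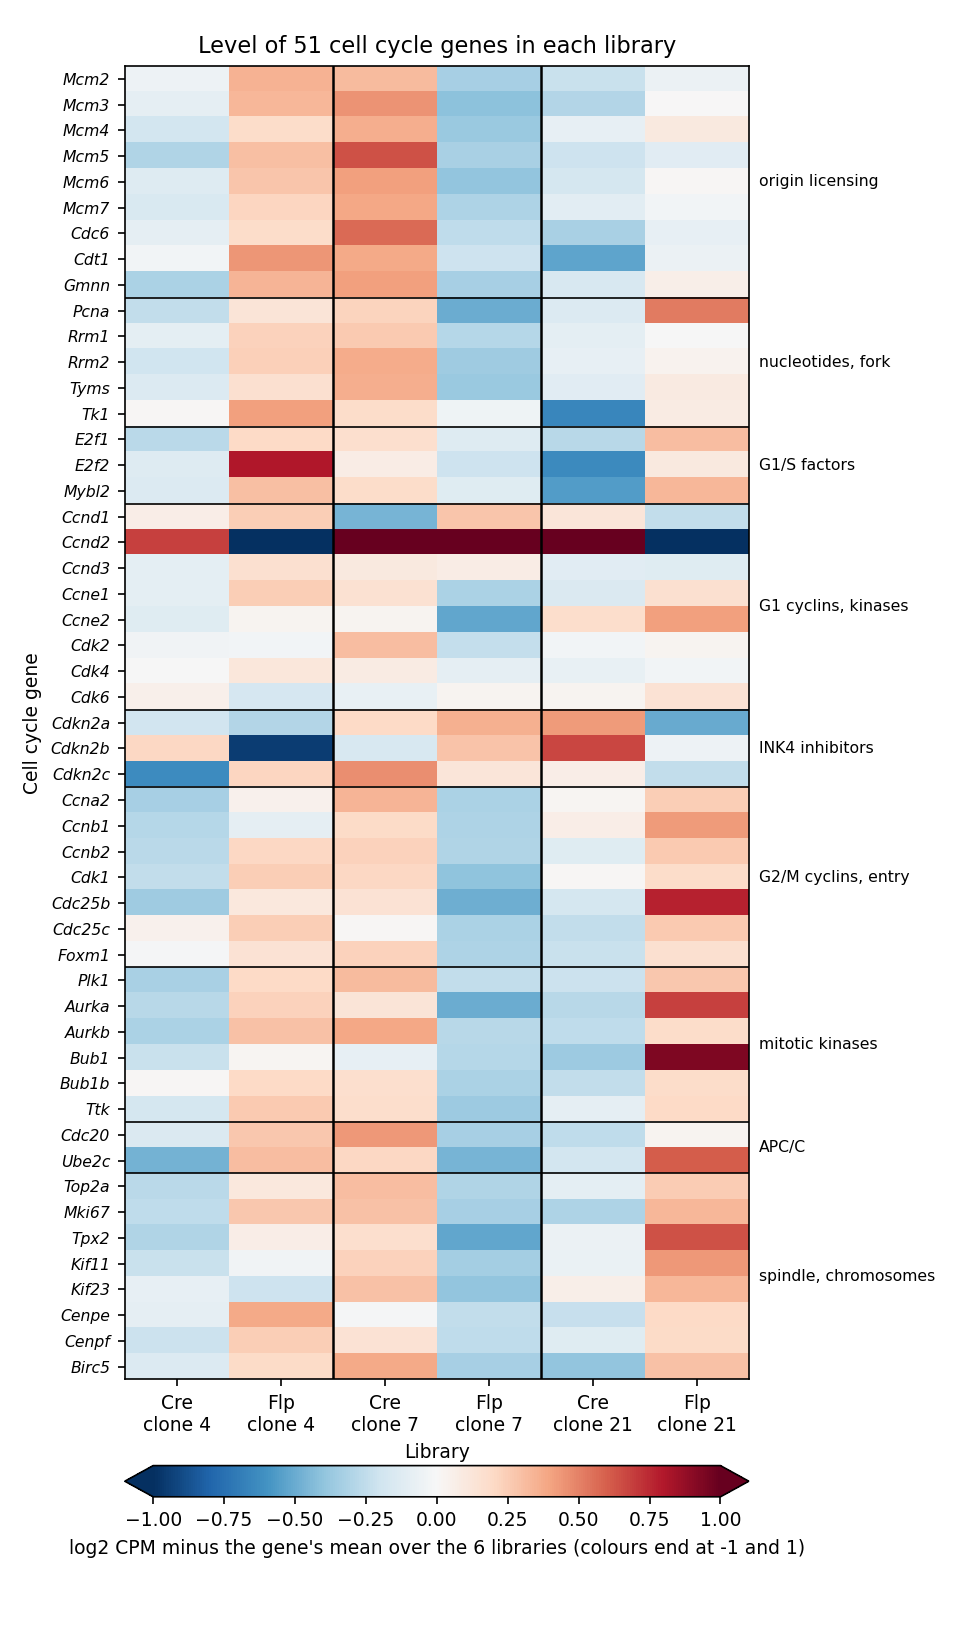
Level of the 51 cell cycle genes (rows, by role) in the 6 libraries (columns), as log2 CPM minus the gene's mean over the libraries. Most rows are below their mean in Cre clone 4, Flp clone 7 and Cre clone 21, and above it in Flp clone 4, Cre clone 7 and Flp clone 21, with Ccnd1, Ccnd2 and Cdkn2b going other ways.

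The G1 cyclins and their kinases departed from this pattern, which 4 of these 8 genes showed. Ccnd2 had 142, 190.4 and 214 CPM in Cre clones 4, 7 and 21, against 28.9, 188 and 15.5 CPM in Flp clones 4, 7 and 21. Ccnd2 (ENSMUSG00000000184, chromosome 6, 127125162 to 127152193, minus strand), a D-type cyclin, was low in Flp of clones 4 and 21 and between 142 and 214 CPM in the other 4 libraries, so that it overlapped between groups only through Flp clone 7. The folds of Cre over Flp were 4.92, 1.01 and 13.8 in clones 4, 7 and 21. Over all clones the fitted log2 fold change of Ccnd2 was 2.05 (SE 0.73; edgeR adjusted p = 0.686), and it passed where edgeR tested all genes with a count (adjusted p = 0.00847), though its adjusted p over all settings ran from 0.00847 to 1. Clone 7 differed in Ccnd2 by -3.02 (SE 0.58; edgeR quasi-likelihood test, Benjamini-Hochberg adjusted p = 0.407), and by -3.04 (SE 0.53, adjusted p = 1.41e-05) in DESeq2. For Ccnd2 the mean normalised count was 4432 in the authors' deposited table and 4419 from the count files. The log2 fold change in the authors' deposited table was 0.21, and its DESeq2 adjusted p was 0.945. DESeq2 fits of the count files gave 2.07 with clone as a block and 1.23 without it. The cause of the smaller deposited value was not tested, so these fold changes may not be like measures.

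Ccnd1 had 585, 406 and 609 CPM in Cre clones 4, 7 and 21, against 663, 677 and 471 CPM in Flp clones 4, 7 and 21. Ccnd1, the D-type cyclin with the highest level per length here at 121 RPKM, had a ratio of -0.74 in clone 7, the lowest of the 51 genes in that clone. Exons of other genes on the other strand overlap 23.4% of the exon bases of Ccnd1 (LTO1), 19.7% of those of Cdk4 (Tspan31) and 17.4% of those of Ccne2 (Ints8), which makes these counts less certain. Cdk4 had 494, 523 and 471 CPM in Cre clones 4, 7 and 21, against 536, 465 and 486 CPM in Flp clones 4, 7 and 21. Cdk4, the kinase partner of the D-type cyclins and the gene with the highest level per length, at 153 RPKM, kept within a log2 ratio of -0.12 to 0.17 in each clone. Cdk6, the other partner, had ratios of 0.22, -0.11 and -0.12 in clones 4, 7 and 21, and Ccnd3 -0.25, 0.03 and 0.01. The E-type cyclins Ccne1 and Ccne2 and their partner Cdk2 were higher in Cre of clone 7, at 0.46, 0.54 and 0.55, and between -0.35 and -0.01 in clones 4 and 21. The authors' deposited table lists means of 1585 for Cdk6 and 124 for Ccne2, where the count files gave 8574 and 274, and the cause was not tested. For 44 of the 51 genes both means were within 1.1-fold.

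The INK4 inhibitors did not follow the other genes. Cdkn2b had 19.5, 15.1 and 26.8 CPM in Cre clones 4, 7 and 21, against 8.76, 20.6 and 16.3 CPM in Flp clones 4, 7 and 21. Cdkn2b, which encodes p15, had ratios of 1.15, -0.45 and 0.71 in clones 4, 7 and 21, the reverse signs of most cell cycle genes, and clone 7 differed by -1.38 (SE 0.41; edgeR adjusted p = 0.634). Cdkn2a had 50.3, 65.8 and 77.1 CPM in Cre clones 4, 7 and 21, against 46.7, 73.5 and 40.5 CPM in Flp clones 4, 7 and 21. Cdkn2a, the gene of p16 and of the p53 activator p19Arf, had ratios of 0.11, -0.16 and 0.93 in clones 4, 7 and 21, and Cdkn2c, the gene of p18, -0.83, 0.34 and 0.31. Counts over the whole gene cannot separate the p16 and p19Arf transcripts of Cdkn2a.

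**Figure D4:**
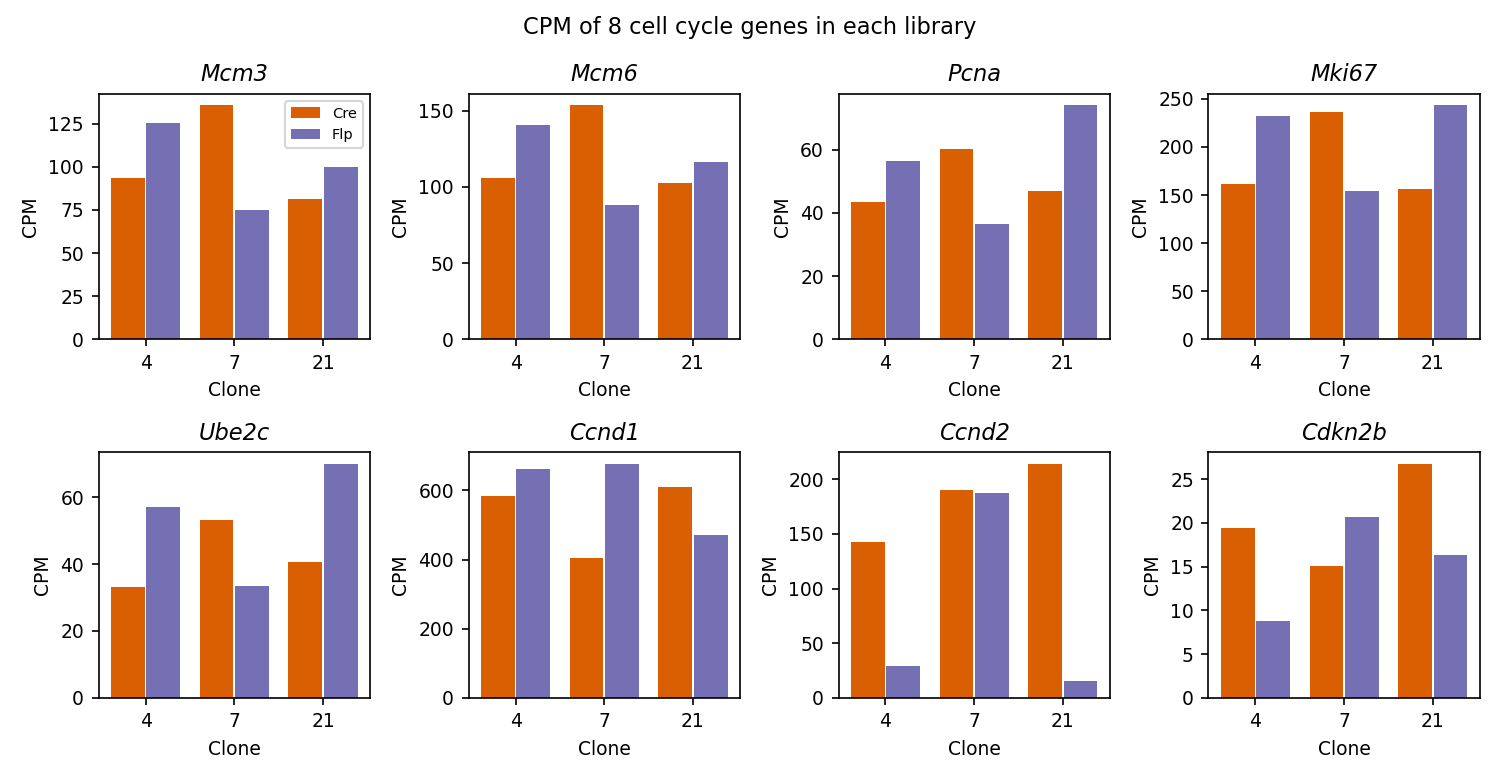
CPM of 8 cell cycle genes in Cre (orange) and Flp (purple) of clones 4, 7 and 21, 1 library per bar. In Mcm3, Mcm6, Pcna, Mki67 and Ube2c the Cre bar is the taller in clone 7 and the shorter in clones 4 and 21, whereas Ccnd1 is shorter in Cre of clone 7 and Ccnd2 is short in Flp of clones 4 and 21.

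Cyclins and kinases of G2 and mitotic entry had the same signs: all 7 had ratios above 0 in clone 7 and below 0 in clones 4 and 21. Cdk1 had 49.4, 67.8 and 59.1 CPM in Cre clones 4, 7 and 21, against 69.7, 44.4 and 66.8 CPM in Flp clones 4, 7 and 21. Cdk1, the kinase that drives mitosis, was higher in Flp of clones 4 and 21 and in Cre of clone 7 than in the other 3 libraries. Of its cyclins, Ccna2 had ratios of -0.37, 0.66 and -0.23 in clones 4, 7 and 21, Ccnb1 of -0.20, 0.49 and -0.36, and Ccnb2 of -0.48, 0.53 and -0.39. Ccna2 shares 12.5% of its exon bases with Exosc9 on the other strand. Foxm1, the mitotic transcription factor, stood at -0.16, 0.54 and -0.38 in clones 4, 7 and 21, and Cdc25c, a phosphatase that activates Cdk1, at -0.21, 0.33 and -0.51. Cdc25b, a phosphatase of the same family, had the lowest clone 21 ratio of the 7, at -0.94.

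Mitotic kinases and checkpoint genes had medians of -0.47, 0.55 and -0.46 in clones 4, 7 and 21, and all 6 showed the signs given for Cdk1. Plk1 and Aurkb, kinases of spindle and chromosome alignment, had ratios of 0.56 and 0.66 in clone 7. Bub1b and Ttk, checkpoint kinases that delay anaphase, had 0.48 and 0.53. Aurka had 31.6, 41.9 and 31.5 CPM in Cre clones 4, 7 and 21, against 44.9, 27.2 and 61.3 CPM in Flp clones 4, 7 and 21. Aurka, the centrosome kinase, had the widest range of ratios of the 6 genes, at -0.51, 0.62 and -0.96 in clones 4, 7 and 21, and its fitted log2 fold change over all clones was -0.29 (SE 0.31; edgeR adjusted p = 0.942). Bub1 had 27.6, 30.4 and 25.1 CPM in Cre clones 4, 7 and 21, against 32.7, 26.4 and 61.6 CPM in Flp clones 4, 7 and 21. Bub1, a spindle checkpoint kinase, was between 25.1 and 32.7 CPM in 5 libraries and at 61.6 CPM in Flp clone 21, and its fitted log2 fold change was -0.44 (SE 0.29; edgeR adjusted p = 0.874). Without clone 21 the value for Bub1 was -0.025, and without clone 7 it was -0.77. For Aurka it was 0.054 without clone 21, -0.17 without clone 4 and -0.73 without clone 7.

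Ube2c and Cdc20 serve the anaphase-promoting complex, which marks cyclin B for destruction. Ube2c had 33.1, 53.2 and 40.6 CPM in Cre clones 4, 7 and 21, against 56.98, 33.4 and 70.04 CPM in Flp clones 4, 7 and 21. Ube2c (ENSMUSG00000001403, chromosome 2, 164769898 to 164778822, plus strand) differed in clone 7 by 1.46 (SE 0.27; edgeR quasi-likelihood test, Benjamini-Hochberg adjusted p = 0.385), the smallest adjusted p of the 51 genes. Fitted over all clones, its log2 fold change was -0.31 (SE 0.31; edgeR adjusted p = 0.934), and it was -0.06 without clone 4, -0.06 without clone 21 and -0.78 without clone 7. Cdc20 had ratios of -0.41, 0.76 and -0.28 in clones 4, 7 and 21. Both carry the TTTGAA core shortly before the RefSeq start, as printed above.

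Genes of the spindle and of chromosome structure had medians of -0.37, 0.61 and -0.46 in clones 4, 7 and 21. Mki67 had 162, 236 and 156 CPM in Cre clones 4, 7 and 21, against 232, 154 and 243 CPM in Flp clones 4, 7 and 21. Mki67 (ENSMUSG00000031004, chromosome 7, 135689784 to 135716361, minus strand), the proliferation marker Ki-67, was at 232 to 243 CPM in Cre of clone 7 and Flp of clones 4 and 21, and at 154 to 162 CPM in the other 3 libraries. Clone 7 differed in Mki67 by 1.204 (SE 0.23; edgeR quasi-likelihood test, Benjamini-Hochberg adjusted p = 0.407). Top2a had 149.9, 224 and 169 CPM in Cre clones 4, 7 and 21, against 195, 147 and 216 CPM in Flp clones 4, 7 and 21. Top2a, the topoisomerase that untangles sister chromatids, differed in clone 7 by 0.97 (SE 0.23; edgeR quasi-likelihood test, Benjamini-Hochberg adjusted p = 0.528), and Tpx2, the spindle factor that activates Aurora A, by 1.22 (SE 0.27; edgeR quasi-likelihood test, Benjamini-Hochberg adjusted p = 0.503). The motors Kif11 and Kif23 and the survivin gene Birc5 had ratios of 0.58, 0.69 and 0.70 in clone 7. Kif23 was the only G2/M gene above 0 in clone 4, at 0.12. Cenpe, a kinetochore motor, and Cenpf, a kinetochore protein, had the ratios -0.47, 0.24 and -0.43 and -0.46, 0.40 and -0.32 in clones 4, 7 and 21, and the fitted log2 fold change of Cenpe was -0.22 (SE 0.17; edgeR adjusted p = 0.900).

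In both phases the same 3 libraries lay below the mean of the 6. Against each gene's mean over the 6 libraries, the median log2 level of G1/S genes was -0.10, 0.31 and -0.14 in Cre clones 4, 7 and 21, against 0.23, -0.29 and 0.03 in Flp clones 4, 7 and 21. That of G2/M genes was -0.25, 0.21 and -0.18 in Cre clones 4, 7 and 21, against 0.20, -0.32 and 0.26 in Flp clones 4, 7 and 21. Flp clone 7 was the lowest library for 15 of 25 G1/S and 17 of 23 G2/M genes. These levels went with library totals. The libraries with low levels were the 3 with the larger totals, with 41574605 and 46918341 counts for Cre of clones 4 and 21 and 40274665 for Flp of clone 7. Those with high levels had 29451753 counts for Cre of clone 7 and 25196120 and 26758752 for Flp of clones 4 and 21. In 36 of 51 genes the 3 libraries with smaller totals were all above the 3 with larger totals, against 5.65% of all genes. In 1 gene, Cdkn2b, they were all below, against 4.03% of all genes. Library total and the direction of the clones cannot be told apart in these 6 libraries.

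**Figure D5:**
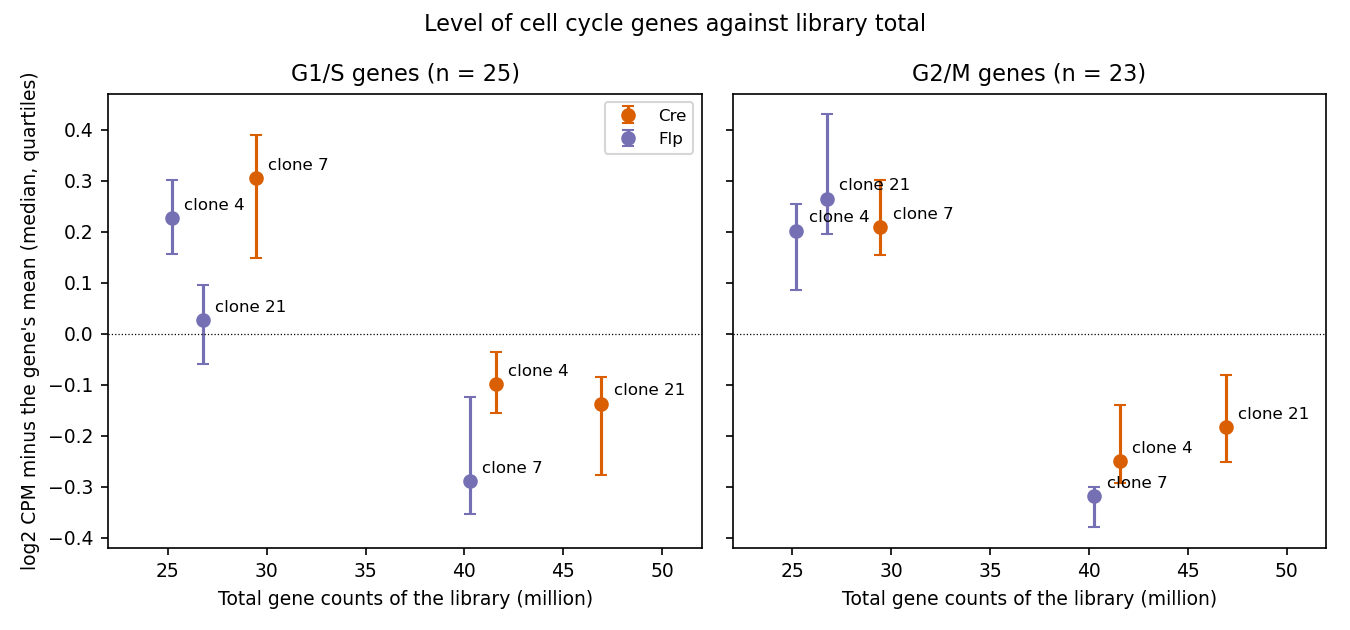
Median level of G1/S genes (left) and G2/M genes (right) in each library, as log2 CPM minus the gene's mean (bars: quartiles over genes), against its total gene counts. In both panels Cre clone 7 and both Flp libraries with small totals lie above 0, and Cre clones 4 and 21 and Flp clone 7 lie below 0.

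Of the 51 genes, 8 lie on distal chromosome 2: E2f1, Pcna, Cdc25b, Bub1, Tpx2, Mybl2, Ube2c and Aurka. In clone 21 their ratios ran from -1.29 to -0.58 with a median of -0.84, against -0.24 for the 43 genes elsewhere. In clone 7 the distal genes had a median of 0.63, against 0.55 elsewhere. In clone 4 it was -0.45, against -0.37 elsewhere. Between the first and the last of the 8 genes (chromosome 2, 127801122 to 172370535), 334 other genes tested had medians of 0.02, 0.00 and -0.54 in clones 4, 7 and 21. Flp clone 21 was the highest library for all 8. Their median level against the gene's mean was 0.62 there, against 0.10 for the cell cycle genes elsewhere. Without them, the clone 21 median was -0.17 for 22 G1/S and -0.38 for 18 G2/M genes.

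Other genes of the cell cycle, from lists that did not include the 51, were counted in the same way. Of 34 genes of origin firing and DNA polymerases, 28 had a ratio above 0 in clone 7 and below 0 in clones 4 and 21, against 13.4% of all genes, and 14 had an unadjusted p under 0.05 for a higher ratio in clone 7, against 3.04% of all genes. Uhrf1, a partner of DNA methyltransferase at the fork, differed in clone 7 by 1.34 (SE 0.27; edgeR quasi-likelihood test, Benjamini-Hochberg adjusted p = 0.414). Of 25 kinesin and spindle genes 20 had these signs, with Ect2, a regulator of cytokinesis, at a difference of 1.06 (SE 0.25; edgeR adjusted p = 0.525). Against the same 13.4% of all genes, the counts were 16 of 24 for kinetochore genes, 9 of 16 for condensin and cohesin, 7 of 15 for the DNA damage checkpoint and 10 of 21 for proteolysis. Of these lists, Incenp, Ncapd2 and Cks1b had clone 7 ratios of 0.60, 0.53 and 0.72. The pocket protein, E2F and DREAM list had 6 of 16, with E2f7, a repressor among the E2F factors, at -0.36, 0.73 and -0.51 in clones 4, 7 and 21. None of the genes of these lists passed the adjusted threshold in either edgeR fit.

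The lists of inhibitors and arrest genes were counted too. Among 20 p53 targets 1 had a ratio above 0 in clone 7 and below 0 in clones 4 and 21, against 13.4% of all genes, and 5 had the reverse signs, against 12.0%. This list had medians of -0.10, 0.15 and 0.27 in clones 4, 7 and 21, with Pmaip1, the gene of Noxa, at a clone 7 difference of -0.65 (SE 0.24; edgeR adjusted p = 0.750). Cdkn1a had 284, 359 and 328 CPM in Cre clones 4, 7 and 21, against 301, 283 and 283 CPM in Flp clones 4, 7 and 21. Cdkn1a, the gene of the inhibitor p21, had ratios of -0.08, 0.35 and 0.21 in clones 4, 7 and 21. Among 5 further CDK inhibitors only Cdkn3, a phosphatase of Cdk1 and Cdk2 whose gene is itself known to peak with mitosis, had these signs. Among 13 genes of quiescence and contact inhibition 2 did, one of them Ankrd1, a YAP target, at -0.07, 0.73 and -0.60. Of 23 replication-dependent histone genes, which are transcribed in S phase, 21 were under 1 CPM and 6 passed the filter. These 6 had medians of 0.13, -0.70 and 0.80 in clones 4, 7 and 21. In clone 7, 5 were below 0, against 7583 of all 15355 genes. The signs of most cell cycle genes were found for 0, against 13.4% of all genes, and the reverse for 2, against 12.0%. The median level of the 23 was 0.0934 CPM, near the counting limits, and how well these transcripts were captured was not tested. The medians of the 6 are thus no measure of histone output. Hist1h1b, the member with the smallest p for clone 7, was at 1.14 CPM or less in every library.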

How the data were processed

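Total RNA of 6 cultures, 1 library per clone and group, was sequenced. The tools were featureCounts 1.6.0.3, STAR 2.5.2b-2, Trim Galore 0.4.3.0, DESeq2 2.11.40.1 and FastQC 0.67, and the build was mm10, per the submitters' processing notes. The deposited count files hold whole-number counts per Ensembl gene, not normalised. The authors' deposited table holds 1 comparison of Cre with Flp, with a mean signal (normalised counts), a log2 fold change, a Wald score and a p-value, raw and adjusted. Whether the counting used strand is not given in the sources used here. Exons shared with genes on the other strand are therefore uncertain.

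Of 49671 identifiers, 49326 matched GENCODE M21 (GRCm38), which gave symbols, positions and exon lengths. Counts were filtered (filterByExpr), scaled (TMM) and fitted in edgeR 4.0.16 (R 4.3.3) by the quasi-likelihood test, two-sided, with Benjamini-Hochberg adjustment over 15355 genes and a threshold of 0.05. The Cre against Flp fit had clone as a block, because the series' design pairs each Cre clone with its Flp clone. Libraries of the same clone deviated together, with correlations of 0.22, 0.12 and 0.29 in clones 4, 7 and 21, against -0.29 to 0.02 between clones. Deviations were taken from the mean of each group, so a positive value within a clone pushes those between clones below 0. The contrast is thus partly built in and is no separate support for the pairing. A second fit added a term for Cre in clone 7. P-values refer only to these clones. In the Cre against Flp fit they rest on the spread between the clones. The second fit matches both clone 7 libraries exactly, so its spread comes from clones 4 and 21 alone. In both fits edgeR moderates the spread over all genes. Ratios within a clone are log2 CPM with a prior count of 2.

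Levels per length are RPKM over all exons. Fitted values are printed for the 4 G1/S and 4 G2/M genes with the smallest p in each fit, and for Pkd1. For 1 gene of each further list, that with the smallest p for clone 7, fitted values, clone ratios or levels are given, except 1 gene that is not reported here. The genes and lists were chosen with earlier results of these data known. Alternatives were limma 3.58.1 (voom), DESeq2 1.42.0, other scalings, filters and prior counts, leaving out each clone, and library depth as a covariate, which was chosen after seeing the data. The edgeR fits of Cre against Flp with clone as a block and of the clone 7 term were tested on simulated data. The alternatives were not.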

Additional observations from a re-analysis of the deposited data

Results flagged for a closer look

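The Cre over Flp ratio had opposite signs in clone 7 and in clones 4 and 21. The median difference of clone 7 from the mean of the other clones was 0.93 (log2) for G1/S genes and 0.97 for G2/M genes, and these medians were not tested. Of the genes with fitted values, clone 7 differed by 1.22 in Mcm3, 1.103 in Mcm6, 1.24 in Pcna, 1.46 in Ube2c, 1.204 in Mki67, 1.22 in Tpx2 and 0.97 in Top2a. The edgeR test of the difference did not pass the adjusted threshold for any of these 7 genes. Library totals ran opposite to these ratios, smaller in Cre than in Flp of clone 7 and larger in Cre than in Flp of clones 4 and 21, and the totals and the clones cannot be told apart.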

How the results depend on the processing

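Under the alternatives, 296 recomputed values were classed as the same, 15 moved further, 7 passed a threshold they had missed and 3 reversed. The same meant an unchanged direction and side of the threshold for fitted values, and within 1.5 times for counts. For medians it meant the same sign and a shift below the SD of the 3 clone medians, a wide limit. Clone 7 differences of single genes with clone 4 or 21 left out had no p-value, so only their sign counted. The 296 is therefore no strict measure of stability. In the edgeR fit without the replicate block, 0 genes and 0 of the 51 passed, and 0 of the 51 had an unadjusted p under 0.05, against 1 with the block. That count was also 0 in DESeq2 with no block, 6 with library depth as a covariate, and 0 to 22 when 1 clone was left out, with 22 without clone 7. The share of all genes at that p was not taken for the fits with no block or with depth. Their counts therefore have no background to be set against. Genes called for Cre against Flp numbered 224 with no filter on low counts, 195 in DESeq2 with the block, 13 in DESeq2 without it and 27 with depth as a covariate. With no filter, where 28286 genes were tested, 1 of the 51 passed, Ccnd2. Pkd1 passed with no filter (-0.68, edgeR adjusted p = 0.0224) and in DESeq2 with the block (-0.69, adjusted p = 0.0269). For clone 7, 3 of the 51 (Ube2c, Mki67 and Ccnd2) passed with no filter, against 165 of 28286 genes (0.583%). In DESeq2 1 of the 51 passed, against 95 genes, or 0.732% of those with an adjusted p. The log2 fold change of Aurka ran from -0.73 to 0.054 when 1 clone was left out, with 0.054 without clone 21, and was 0.13 with depth as a covariate, and that of Ube2c was 0.13 with depth as a covariate. When 1 clone was left out, the log2 fold changes ran from -0.77 to -0.025 in Bub1, -0.78 to -0.058 in Ube2c, -0.66 to -0.069 in Mybl2, -0.83 to -0.22 in E2f2, -0.56 to -0.091 in Tk1, -0.44 to -0.095 in Cenpe and 1.14 to 3.04 in Ccnd2. In each but Ccnd2 the lowest value was that without clone 7. The cause was not tested. Leaving out clone 4 or 21 gives the clone 7 difference no residual degrees of freedom, so it is a value with no test. Depth limited E2f2 and Cdkn2c most, with as few as 175 and 163 reads in a library.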
